A study of Mus musculus with 4 samples.

Results

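The genes described here encode the nuclear subunits of the mitochondrial oxidative phosphorylation machinery, measured on 4 one-colour oligonucleotide arrays of sorted gastric tumour cells. They were chosen by gene symbol and not by any measured value: all gene probes whose accession led to a symbol of the Ndufa, Ndufb, Ndufc, Ndufs or Ndufv series, Sdha to Sdhd, the Uqcr, Cox4 to Cox8 and Atp5 series, Cyc1 or Cycs. This gave 114 of 41174 probes, for 90 of 17016 named genes. Since the symbols of the complex I assembly factors also begin with Ndufa, 5 Ndufaf genes were among them. The tumours came from the glandular stomach of K19-Wnt1/C2mE mice aged 30 weeks. In this transgenic line the keratin 19 promoter drives Wnt1 together with cyclooxygenase-2 and microsomal prostaglandin E synthase 1 in the gastric epithelium, and both groups carried these transgenes. The groups were lineage-marker-negative CD44+ cells (2 arrays) and lineage-marker-negative CD44- cells (2 arrays), where CD44 is a cell-surface receptor for hyaluronan. The labels name no separate mice for the replicates, so errors and p-values measure how these samples vary, and that variation may be technical.

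Oxidative phosphorylation passes electrons from NADH through complex I, or from succinate through complex II, to complex III, then by cytochrome c to complex IV, where oxygen is reduced. Complexes I, III and IV pump protons out of the matrix, and the ATP synthase makes ATP as the protons flow back. All complexes other than complex II join catalytic core subunits to smaller accessory subunits. They also hold subunits encoded by mitochondrial DNA, which the symbols above do not cover. In the stomach the acid-secreting parietal cells are known for their dense mitochondria.

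Levels are log2 processed signal relative to the 75th percentile of the same array, so that 0 is the level of that percentile. A level compares 1 probe between arrays, and levels of different probes are not compared with each other. Paired values give the first and then the second array of a group, and values set against each other without group names give CD44+ before CD44-. Differences are CD44+ minus CD44-, with standard errors (SE) from a limma fit to all 21045 genes tested, and n is 2 arrays per group throughout. The genes tested include accessions without a gene symbol, each counted as a gene. The first CD44+ array was the dimmest, with a 75th percentile of processed signal of 257, against 428 to 575 on the other 3, and no spot was saturated. The Cd44 transcript itself lay at 6.31 and 6.54 in CD44+ cells and 4.26 and 5.11 in CD44- cells, a 3.34-fold difference that did not pass over all genes (limma, adjusted p = 0.199). The epithelial marker Epcam and the gastric gene Gkn2 were well above background on all 4 arrays. So was the leukocyte gene Ptprc, a lineage marker in many sorts.

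No oxidative phosphorylation gene passed the test between CD44+ and CD44- cells. Of the 90 genes, 86 were well above background on all 4 arrays and were tested, and none of them passed at a Benjamini-Hochberg adjusted p under 0.05 in limma's test, where 0.399% of all genes tested passed. None had an unadjusted p under 0.05, and the smallest adjusted p was 0.755. The log2 differences ran from -0.46 to 0.78, so that each of the 86 was under 2-fold, as were 84.2% of all genes tested. Their median was 0.32, against 0.16 for all genes tested, and 82 of the 86 lay above 0, against 60.6% of all genes tested. The distance between these medians depended on the processing. They were 0.43 against 0.26 with median scaling, 0.27 against 0.19 with normexp background correction and 0.13 against 0.12 with quantile normalization. With only genes well above background on all 4 arrays, as the 86 were, the median of all genes was 0.24. With 2 arrays per group the precision was low. The 95% confidence intervals reached up to values between 0.56 and 2.25 and down to values between -1.48 and -0.46, and none lay wholly within 2-fold in both directions.

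1 array stood below the others for nearly all of these genes. The median level of the 86 genes was 5.89 and 6.44 in CD44+ cells and 6.23 and 5.38 in CD44- cells. For 81 of the 86 genes, or 94.2%, the lowest array was the second CD44- array, as it was for 43.2% of all genes tested. Some other gene lists had this too: the same array was the lowest for 20 of 22 protein import genes, 32 of 36 assembly factors outside the symbols above, 14 of 16 membrane carriers and scaffolds and 8 of 9 cell cycle genes. It was the lowest for fewer in other lists, with 9 of 15 biogenesis regulators, 6 of 13 hypoxia-responsive genes and 2 of 10 genes of mitochondrial DNA upkeep. That array was the highest for none of the 86, against 25.3% of all genes tested. The first CD44- array was never the lowest, and for 57 of the 86 genes it lay between the 2 CD44+ arrays. With the second CD44- array left out, the members' median difference was -0.064, beside 0.045 for all genes, with 29 genes above 0 and 57 below. With the first CD44- array left out it was 0.69, with 84 above 0, and the median differences without the first or second CD44+ array were 0.51 and 0.20. The difference changed sign in at least 1 of these 4 fits for 59 of the 86 genes, and no member passed over all genes in any of them. Without the first CD44- array, 4 had an unadjusted p under 0.05, namely Cox7c, Sdhd, Ndufv2 and Ndufs4, with a smallest adjusted p of 0.185.

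**Figure D1:**
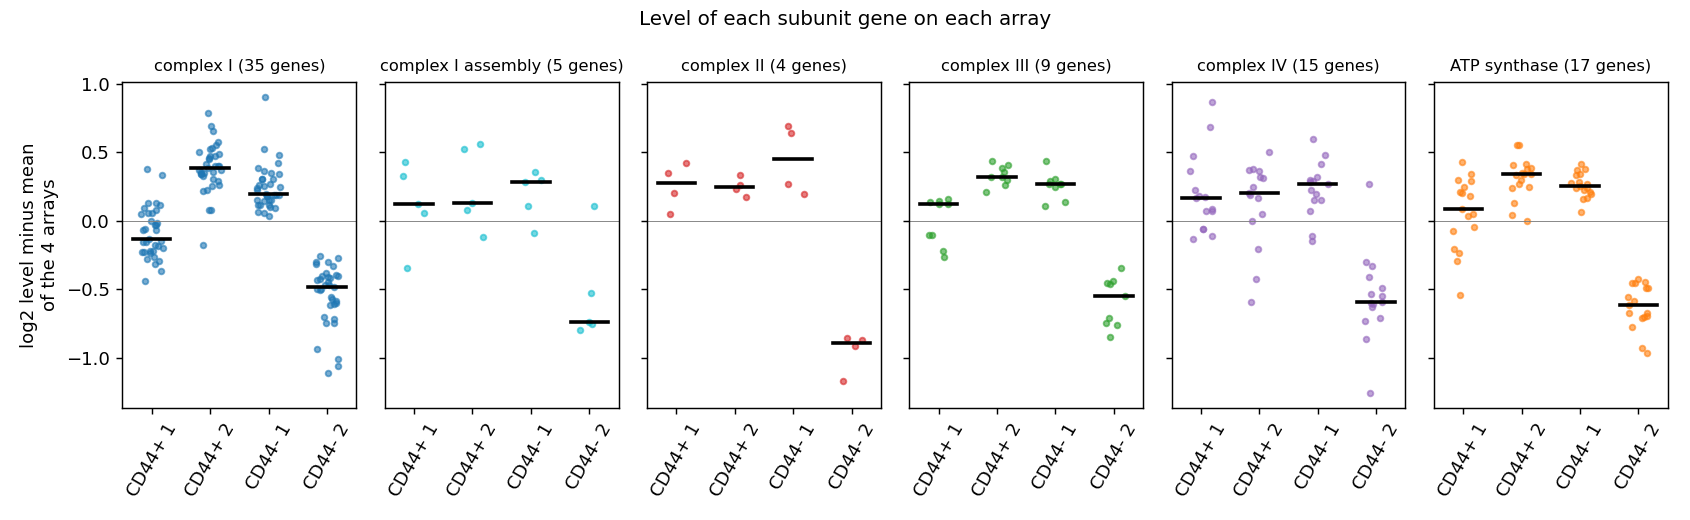
Level of each tested subunit gene on each array, as log2 level minus the gene's own mean over the 4 arrays, by complex; points are genes, black bars are medians, and cytochrome c (1 gene) is not drawn. In all 6 panels the median of the second CD44- array is the lowest of the 4.

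The groups overlapped for 75 of the 86 genes, or 87.2%, against 60.4% of all genes tested. The groups did not overlap for the other 11 genes. Both CD44+ arrays lay above both CD44- arrays for 10 of them, or 11.6%, against a background of 22.4% of all genes tested. Both lay below for 1, or 1.16%, against a background of 17.2%. The 10 were the complex I assembly factors Ndufaf4 and Ndufaf5, the complex I subunit Ndufb7, Sdha, Uqcr11, the complex IV subunits Ndufa4, Cox4i1 and Cox8a, and the ATP synthase subunits Atp5g2 and Atp5mpl. The 1 below was the assembly factor Ndufaf7. Ndufb7, Uqcr11 and Atp5mpl are named here because of this pattern, after their values were seen.

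**Figure D2:**
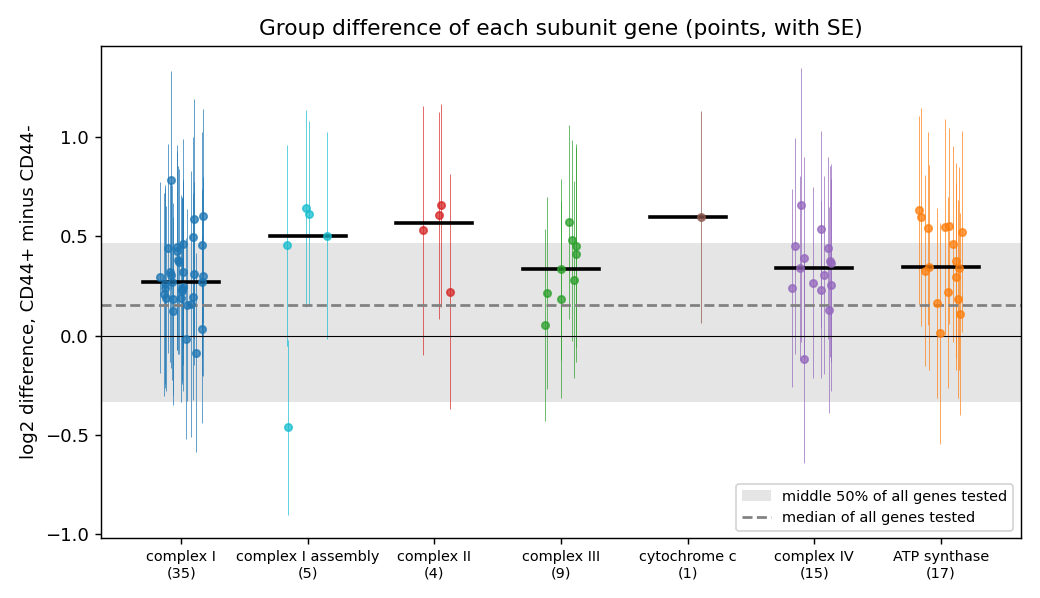
Difference of each tested gene (points, CD44+ minus CD44-, log2) with its SE, by complex with the number of genes below; black bars are medians of each complex, the dashed line is the median of all genes tested (0.16) and the grey band their middle 50%. The medians of the complexes lie between 0.27 and 0.60, and every SE is at least 0.44.

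A feature that the choice by symbol did not use is the promoter. RefSeq windows of GRCm38.p6, from 250 bases before to 50 bases after each gene's start, were at hand for 74 of the 90 genes, and were searched on both strands for 3 short motifs, which were allowed to overlap. The NRF1 motif, named after a factor known to bind promoters of respiratory chain genes, was searched as a consensus string and was found for 18 of the 74 genes (24.3%), against 5.19% of all 27025 genes with a window. The ETS motif CCGGAAG, bound among others by GABPA (also called NRF2), was likewise found for 18 (24.3%), against 9.93%. AAGATGG, the core of the YY1 motif, was found for 11 (14.9%), against 7.28%. Most of the 74 genes thus lacked each motif. The 27025 genes were not restricted to the genes tested here, nor matched to the members for base composition. A match is a string of letters and not a shown binding site. The 150 bases before the start are printed below for Sdha and Sdhd, from the complex with the widest median gap between the CD44- arrays, for Cox6a1 and Atp5h, which hold an NRF1 and an ETS match each, and for Cox8a and Cox8b, a pair of isoform genes of which the first was well above background on all arrays and the second on 1. All 6 lie on the minus strand and are written 5′ to 3′ toward the start, with the matches in capitals.
Sdha, chr13:74350241-74350390: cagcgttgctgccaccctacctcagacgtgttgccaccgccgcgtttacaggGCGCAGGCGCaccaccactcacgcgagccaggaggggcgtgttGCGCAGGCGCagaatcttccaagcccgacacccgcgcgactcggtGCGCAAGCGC
Sdhd, chr9:50603850-50603999: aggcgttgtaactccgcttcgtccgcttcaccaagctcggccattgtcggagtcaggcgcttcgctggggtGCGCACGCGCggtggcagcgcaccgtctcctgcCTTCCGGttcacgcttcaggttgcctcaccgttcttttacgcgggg
Cox6a1, chr5:115348959-115349108: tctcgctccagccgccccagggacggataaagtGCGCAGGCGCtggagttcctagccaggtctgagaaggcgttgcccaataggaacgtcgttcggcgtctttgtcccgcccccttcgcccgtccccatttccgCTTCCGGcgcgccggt
Atp5h, chr11:115419920-115420069: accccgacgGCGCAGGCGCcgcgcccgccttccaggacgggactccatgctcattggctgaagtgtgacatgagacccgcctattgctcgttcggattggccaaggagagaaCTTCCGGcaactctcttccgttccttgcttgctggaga
Cox8a, chr19:7217617-7217766: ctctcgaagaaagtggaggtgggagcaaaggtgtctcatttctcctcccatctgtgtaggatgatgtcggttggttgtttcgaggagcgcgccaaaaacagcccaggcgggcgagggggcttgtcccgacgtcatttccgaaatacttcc
Cox8b, chr7:140900447-140900596: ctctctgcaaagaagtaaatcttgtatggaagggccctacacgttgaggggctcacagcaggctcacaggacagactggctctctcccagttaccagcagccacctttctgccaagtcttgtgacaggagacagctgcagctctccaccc
The Sdha stretch holds 3 NRF1 matches, and Sdhd, like Cox6a1 and Atp5h, holds an NRF1 and an ETS match. None of the 3 motifs is in either printed Cox8 stretch, though Cox8a holds an ETS match in the rest of its window and is 1 of the 18 genes counted above. Among the 72 tested genes with a window, the 18 with an NRF1 match had a median difference of 0.33 and the 54 without one of 0.32. The same comparison for the ETS motif gave 0.32 and 0.33, and for the YY1 motif 0.30 for 11 genes and 0.33 for 61. The median gap between the 2 CD44- arrays was 0.82 both with and without an NRF1 match. It was 0.83 with and 0.82 without an ETS match, and 0.91 with and 0.82 without a YY1 match. The median gap between the CD44+ arrays, second minus first, was 0.42 with and 0.35 without an NRF1 match. That gap was 0.24 and 0.42 for the ETS motif and 0.42 and 0.36 for the YY1 motif. These gaps were not tested.

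Complex I, the NADH dehydrogenase, was represented by 35 subunit genes, all of them tested. Their median difference was 0.27, from -0.086 for Ndufa5 to 0.78 for Ndufs4, with 33 above 0. The groups overlapped for 34, or 97.1%, against 60.4% of all genes tested. Ndufs4, an accessory subunit whose loss in mice is used as a model of Leigh syndrome, had the largest difference of all members. Its level was 5.52 and 6.04 in CD44+ cells and 5.61 and 4.37 in CD44- cells, a difference of 0.78 ± 0.55 (limma, adjusted p = 0.755). The first CD44- array thus lay within the CD44+ range, and the second alone was low. Without the second CD44- array the difference was 0.17.

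Core subunits of complex I encoded in the nucleus carry the flavin and iron-sulphur clusters or line the quinone site. Ndufs1, the largest iron-sulphur subunit, lay at 5.10 and 5.27 in CD44+ cells and 5.25 and 4.58 in CD44- cells, a difference of 0.27 ± 0.47. Ndufv1, which binds the flavin and NADH, lay at 5.41 and 5.41 in CD44+ cells and 5.68 and 4.82 in CD44- cells, a difference of 0.15 ± 0.48. For both, 3 arrays were close and the second CD44- array was lower. Ndufs3, Ndufs7, Ndufs8 and Ndufv2 differed by 0.32, 0.23, 0.21 and 0.59, and each lay lowest on the second CD44- array.

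Accessory subunits of complex I numbered 28, with a median difference of 0.30 against 0.23 for the core. Their CD44- arrays were 0.68 apart at the median, and their CD44+ arrays stood apart too. The second CD44+ array was the higher one for 27 of the 28, by a median of 0.56, and it was the highest of all 4 arrays for 25. For comparison, the second CD44+ array was the higher one for 52.8% of all genes tested, with a median gap of 0.056. Other members shared this direction, with 70 of all 86, all 9 of complex III and 14 of 17 of the ATP synthase. The core subunits of complex I had a median gap of 0.33 between the CD44+ arrays. Among the genes with wide gaps were Ndufc2, a membrane-arm subunit, at 5.85 and 6.82 against 6.15 and 5.32 (difference 0.60 ± 0.54), and Ndufa5, a subunit of the matrix arm, at 6.19 and 6.99 against 6.98 and 6.38 (difference -0.086 ± 0.50). Ndufa5 and Ndufv3 were the only complex I subunits with a difference below 0. Ndufv3, an accessory subunit beside Ndufv1, had 3 probes, which differed in sign, from -0.014 to 0.28.

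Complex I assembly factors build the complex but are not part of it. Ndufaf4, which acts early in assembly, lay at 2.72 and 3.22 in CD44+ cells and 2.58 and 2.14 in CD44- cells, a difference of 0.61 ± 0.47 (limma, adjusted p = 0.773), and a second probe differed by 0.19. Ndufaf5, an enzyme that hydroxylates Ndufs7, lay at 0.71 and 1.11 in CD44+ cells and 0.70 and -0.17 in CD44- cells, a difference of 0.64 ± 0.50. In both genes the first CD44+ array exceeded the first CD44- array by a margin smaller than the SE, and without the second CD44- array they differed by 0.39 and 0.21. Ndufaf7, a methyltransferase, went the other way, at -2.56 and -2.33 in CD44+ cells and -1.86 and -2.10 in CD44- cells. Its difference of -0.46 ± 0.44 was the lowest of all 86 genes, and it stayed below 0 with each array left out, from -0.59 to -0.34, with no call in any of these fits. Ndufaf1 and Ndufaf3 differed by 0.50 and 0.46.

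**Figure D3:**
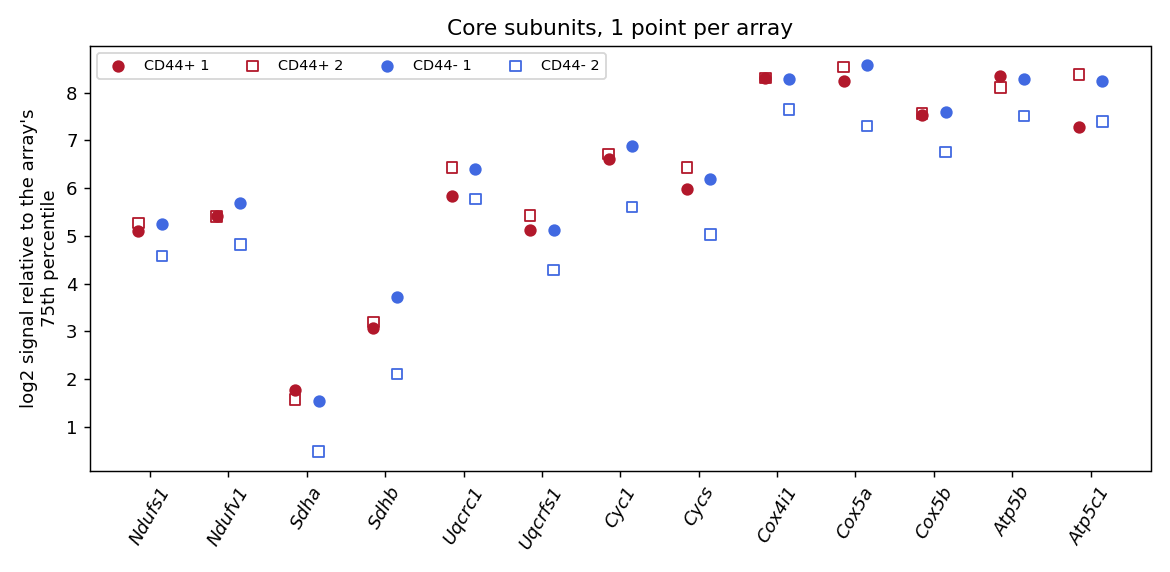
Level of 13 chosen genes on each array (log2 relative to the array's 75th percentile). Red is for CD44+, blue for CD44-, filled circles for replicate 1 and open squares for replicate 2. The title calls them core subunits, but Cycs is a carrier and Cox4i1, Cox5a and Cox5b lie outside the catalytic core. Heights compare arrays within a gene, not genes. For 12 of the 13 genes the open blue square is the lowest point, Atp5c1 being the exception.

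Complex II, succinate dehydrogenase, links the citric acid cycle to the chain and holds no subunit from mitochondrial DNA. All 4 genes lay above 0, with a median of 0.57. The flavoprotein subunit Sdha lay at 1.76 and 1.58 in CD44+ cells and 1.54 and 0.49 in CD44- cells, and its groups did not overlap, though the first CD44- array was close to the second CD44+ array. The difference was 0.66 ± 0.51 (limma, adjusted p = 0.775), and its second probe gave 0.60. The iron-sulphur subunit Sdhb lay at 3.07 and 3.20 in CD44+ cells and 3.72 and 2.11 in CD44- cells, so that the first CD44- array was the highest and the second the lowest, with a difference of 0.22 ± 0.59. The membrane anchor Sdhc lay at 3.28 and 3.20 in CD44+ cells and 3.20 and 2.06 in CD44- cells, a difference of 0.61 ± 0.52, with 3 arrays level and the second CD44- array low. Sdhd, the other anchor, differed by 0.53 ± 0.63 and had a gap of 1.81 between the CD44- arrays. The median gap of the 4 genes was 1.37, the widest of the complexes, whereas the 2 CD44+ arrays were 0.019 apart at the median. Without the second CD44- array the median difference of complex II was -0.17, and Sdhb differed by -0.58.

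Complex III, the cytochrome bc1 complex, had 9 genes with a median difference of 0.33, all above 0. The groups overlapped for 8 of them, against 60.4% of all genes tested. The Rieske iron-sulphur protein Uqcrfs1 lay at 5.13 and 5.43 in CD44+ cells and 5.13 and 4.28 in CD44- cells, a difference of 0.57 ± 0.49. Cyc1, the cytochrome c1 haem subunit, lay at 6.60 and 6.72 in CD44+ cells and 6.89 and 5.61 in CD44- cells, a difference of 0.41 ± 0.54. Uqcrc1, a core protein without a redox centre, lay at 5.84 and 6.43 in CD44+ cells and 6.40 and 5.77 in CD44- cells, a difference of 0.055 ± 0.49. Only the second CD44- array was set apart for Uqcrfs1 and Cyc1, while for Uqcrc1 the arrays of each group were 0.59 and 0.63 apart and the group means level. Uqcrb, which lies by the quinone site, differed by 0.48 ± 0.51. The remaining 5, Uqcrc2, Uqcrh, Uqcrq, Uqcr10 and Uqcr11, differed by between 0.18 and 0.45. The sign of Uqcrc1 turned to -0.12 with quantile normalization and to -0.050 with normexp background correction.

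Cytochrome c (Cycs), the mobile carrier that also triggers apoptosis once released, was measured by 3 probes. The brightest lay at 5.98 and 6.43 in CD44+ cells and 6.19 and 5.03 in CD44- cells, a difference of 0.60 ± 0.53 (limma, adjusted p = 0.791), and the probes ranged from 0.55 to 0.69. The first CD44- array lay between the CD44+ arrays. Without the second CD44- array the difference was 0.020.

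Complex IV, cytochrome c oxidase, had 19 genes, of which 15 were tested. Its nuclear subunits include isoform pairs of which 1 is broadly expressed and the other is known from tissues such as heart, skeletal muscle, testis or lung. Among the broad subunits, Cox4i1 lay at 8.32 and 8.31 in CD44+ cells and 8.29 and 7.65 in CD44- cells, a difference of 0.34 ± 0.46. Cox5a, which contacts the catalytic core from the matrix side, lay at 8.23 and 8.54 in CD44+ cells and 8.57 and 7.30 in CD44- cells, a difference of 0.45 ± 0.54, and Cox5b, which binds zinc, at 7.53 and 7.57 against 7.59 and 6.76, a difference of 0.37 ± 0.48. For Cox4i1 and Cox5b the first 3 arrays were within less than 0.10 of each other. Cox6a1, Cox6b1, Cox7a2 and Cox7b differed by 0.36, 0.27, 0.31 and 0.39, each with overlapping groups. Cox8a lay at 7.44 and 7.53 in CD44+ cells and 7.41 and 6.48 in CD44- cells, a difference of 0.54 ± 0.49 (limma, adjusted p = 0.795). Cox7c was less even, at 5.21 and 4.14 in CD44+ cells and 4.94 and 3.09 in CD44- cells, a difference of 0.66 ± 0.69. Without the first CD44- array it reached 1.58 (limma, adjusted p = 0.185, in a fit of 3 arrays), and without the second it was -0.27.

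Ndufa4, once counted with complex I and since assigned to complex IV, lay at 5.45 and 6.01 in CD44+ cells and 5.40 and 5.18 in CD44- cells, a difference of 0.44 ± 0.46. Its 2 CD44- arrays were 0.22 apart, the smallest gap of the members that were lower on the second. Cox7a2l, a Cox7a relative that joins complexes III and IV in supercomplexes, differed by 0.13 ± 0.52, with levels of 2.75 and 3.11 against 3.35 and 2.25. Cox4i2, known from lung, and the testis forms Cox7b2 and Cox8c were not well above background on any array and were not tested. Cox8b, the muscle form, was well above background on 1 array, the second CD44- array, and was not tested either. The muscle forms Cox6a2 and Cox7a1 were well above background on all 4 arrays. Cox6a2 lay at -1.82 and -2.92 against -2.34 and -2.91, a difference of 0.26 ± 0.53, and Cox7a1 at 0.71 and 0.58 against 0.60 and 0.22, a difference of 0.23 ± 0.45. The groups overlapped for both. Cox6b2, known from testis, lay at 0.29 and -0.78 in CD44+ cells and -0.33 and 0.078 in CD44- cells and was the 1 member tested for which the second CD44- array was the higher of its group. Its difference of -0.12 ± 0.52 turned to 0.41 without the second CD44+ array.

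The ATP synthase had 17 genes, all above 0, with differences from 0.012 to 0.63 and a median of 0.35. The groups overlapped for 15 of them, against 60.4% of all genes tested. The catalytic beta subunit Atp5b lay at 8.35 and 8.10 in CD44+ cells and 8.29 and 7.51 in CD44- cells, a difference of 0.33 ± 0.48, and its 3 probes ranged from 0.15 to 0.33. Atp5c1, the gamma subunit that turns inside the catalytic head, lay at 7.28 and 8.38 in CD44+ cells and 8.24 and 7.40 in CD44- cells. Its lowest array was the first CD44+ array, the gap between its CD44+ arrays was the widest of the genes higher on the second, and the group means were level (0.012 ± 0.56). Its sign turned to -0.16 with quantile normalization. The 3 genes of the c subunit, which forms the proton-driven ring, make the same mature protein. Atp5g1 lay at 4.98 and 5.03 against 5.11 and 3.81, Atp5g2 at 7.25 and 7.30 against 7.02 and 6.26 and Atp5g3 at 8.51 and 8.21 against 8.25 and 7.37, CD44+ against CD44- arrays. Their differences were 0.55 ± 0.54, 0.63 ± 0.47 and 0.55 ± 0.49, and only Atp5g2 had groups that did not overlap (limma, adjusted p = 0.77). Without the second CD44- array the 3 differed by -0.10, 0.25 and 0.12. Stalk and membrane subunits with other roles, such as Atp5h and Atp5o of the peripheral stalk, differed by 0.11 and 0.38.

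Of the 86 genes, 18 had more than 1 tested probe. The probes had the same sign in 17 of them, all but Ndufv3, and differed from each other by less than 0.30 in 17, all but Ndufaf4. Another 27 RefSeq symbols fit the choice but had no named probe and were not analysed here, 8 of them coding genes, among them Ndufa4l2, an isoform of Ndufa4, and 19 pseudogenes. Whether transcripts of the pseudogenes bind probes of the parent genes was not tested.

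**Figure D4:**
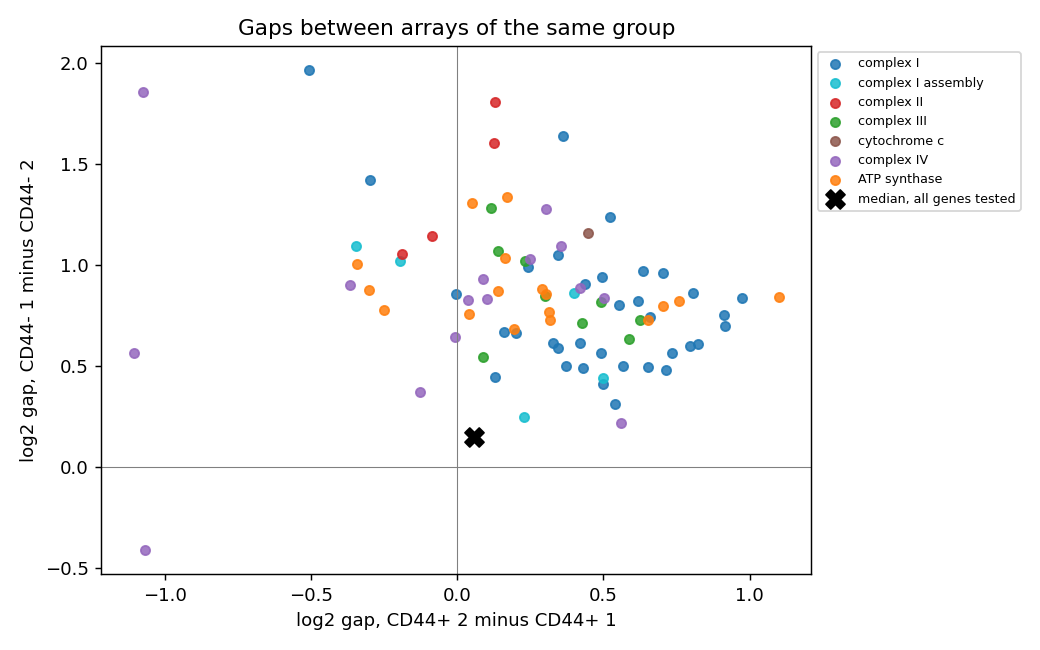
Gap between the 2 arrays of each group for every tested gene (points, log2), with CD44+ 2 minus CD44+ 1 across and CD44- 1 minus CD44- 2 upward; the black cross is the median of all genes tested. 85 of the 86 genes lie above 0 on the upward axis, and 70 lie to the right of 0.

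The gap between the CD44- arrays exceeded the difference between the groups. The CD44- arrays were 0.83 apart at the members' median, against 0.15 for all genes, and the first was the higher one for 85 of the 86 genes, against 58.8% of all genes tested. The members' gap was 0.91 with median scaling, 0.78 with normexp background correction and 0.36 with quantile normalization, beside 0.23, 0.19 and 0.10 for all genes. The second CD44- array was the lowest for 82, 72 and 60 of the 86 genes in the same order. Wide gaps were those of Cox7c (1.85), Sdhd (1.81), Ndufv2 (1.64) and Sdhb (1.61).

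Other cells' markers moved with the same array. The summed signal of 6 general epithelial markers, as a multiple of each array's 75th percentile, was 2166 and 1553 in CD44+ cells and 1970 and 845 in CD44- cells, and all 6 were lowest on the second CD44- array. For 8 fibroblast markers the sums were 8.04 and 43.3 in CD44+ cells and 69.9 and 468 in CD44- cells, and all 8 were highest on that array. The endothelial markers summed to 0.924 and 1.64 in CD44+ cells and 5.82 and 111 in CD44- cells, with 6 of the 7 tested highest there, and the 8 pericyte markers to 1.25 and 4.94 in CD44+ cells and 2.9 and 32.3 in CD44- cells, all highest there. On the first CD44+ array 6 fibroblast, 5 endothelial and 2 pericyte markers were well above background. The other tested markers of these lists passed the filter only through the CD44- group. That they lay higher in that group was thus partly fixed by the filter. Parietal markers summed to 201 and 214 in CD44+ cells and 315 and 116.5 in CD44- cells, a sum carried by the carbonic anhydrase Car2. Without Car2 the parietal sums were 54.0 and 57.1 in CD44+ cells and 29.7 and 53.6 in CD44- cells. Of the 11 parietal markers tested, 5 were highest and 3 lowest on the second CD44- array, and Slc26a7 was not well above background on any array. Of the acid pump genes, which were highest on the second CD44- array, Atp4a lay at -2.66 and -1.57 against -2.24 and 0.23 and Atp4b at -2.65 and -3.15 against 0.48 and 4.37, CD44+ against CD44-, and neither passed. The part of these cells in the members' levels was not tested, and in sorted bulk samples fewer cells of a type and less RNA per cell cannot be told apart. For all 9 cell cycle markers tested both CD44+ arrays lay above both CD44- arrays, against 22.4% of all genes tested. Their median difference was 2.02, and none passed over all genes. The enteroendocrine markers had 7 of 10 called lower in CD44+ cells and the squamous markers 1 of 8, against 0.375% of all genes tested. The mast cell and leukocyte markers each had 1 called higher, against 0.0238%. The squamous call, Krtdap, and the leukocyte call, Cd53, were well above background on 2 arrays only, and the enteroendocrine calls Ghrl and Scg5 on 3. These 4 were tested through the group where they were high. No chief, surface mucous, muscle or brown fat marker was called.

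**Figure D5:**
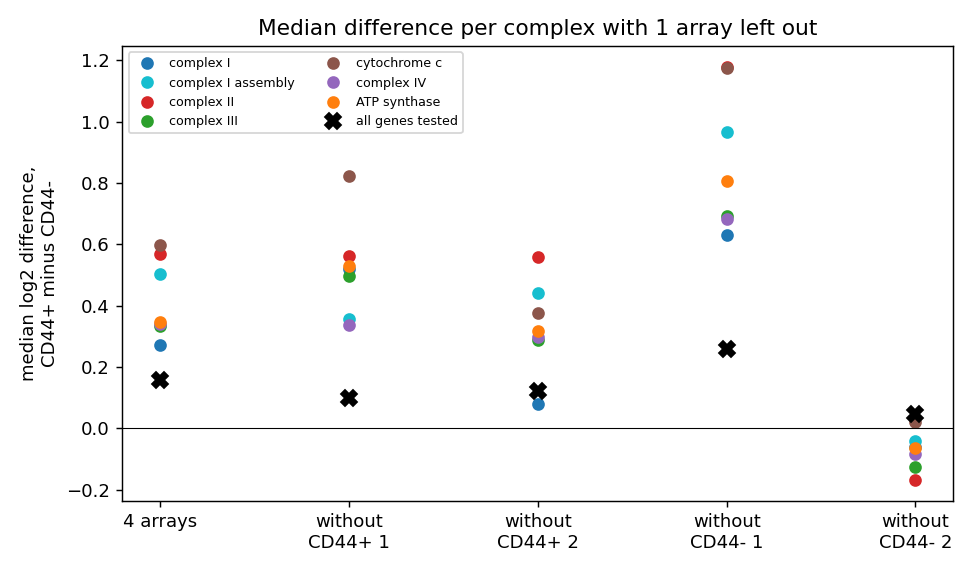
Median log2 difference of each complex (coloured points) and of all genes tested (black cross) in the fit to all 4 arrays and in the 4 fits to 3 arrays. Without the second CD44- array the medians of the complexes lie between -0.17 and 0.020, and without the first between 0.63 and 1.18.

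Other genes of mitochondrial function, from lists set beside the members, gave no calls either, where 0.0238% of all genes passed as higher and 0.375% as lower. None of the 36 assembly factors outside the symbols above passed, 32 being above 0 with a median of 0.33. The smallest adjusted p among them was that of Ttc19, a complex III factor, at -0.36 and -0.42 against -1.08 and -1.31, a difference of 0.80 ± 0.44 (limma, adjusted p = 0.636). Nubpl, which delivers iron-sulphur clusters to complex I, differed by -0.97 ± 0.54, with both CD44+ arrays below both CD44- arrays. Its levels were low, at -4.85 and -3.88 against -2.95 and -3.835, and it was well above background on 3 arrays. Protein import genes (22 tested) had a median of 0.47 with 21 above 0, led by the translocase chaperone Timm8a1 (0.95 ± 0.51) and the receptor Tomm70a (0.77 ± 0.49). Carriers and scaffolds of the membranes (16 tested) had a median of 0.35, all above 0. The transcript of citrate synthase (Cs) differed by 0.20 ± 0.50. It is the activity of this enzyme, not measured here, that is a common measure of mitochondrial content.

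Regulators of mitochondrial biogenesis gave a median of 0.25 over 15 genes, with 12 above 0 and none passing. The nuclear receptor Esrrb had the smallest adjusted p, with a difference of 1.11 ± 0.54 (limma, adjusted p = 0.553). Its levels were low, at -3.76 and -3.05 against -3.985 and -5.04, and it was well above background on 3 arrays. The other regulators named here are well-known members of the list, chosen for that. The coactivator Ppargc1a lay at 0.95 and 2.75 against 2.26 and 2.52, a difference of -0.54 ± 0.63, with the first CD44+ array lowest. The factors whose motifs are given above differed by -0.069 ± 0.47 for Nrf1, 0.11 ± 0.45 for Gabpa and 0.43 ± 0.45 for Yy1, and the mitochondrial transcription factor Tfam by 0.48 ± 0.50. Genes of mitochondrial DNA upkeep (10 tested) had a median of 0.15, with Dna2, a nuclease also used in nuclear replication, at 1.44 ± 0.51 (limma, adjusted p = 0.321). Uncoupling and antioxidant genes (11 tested) had a median of 0.36, with the uncoupling protein Ucp2 at 0.89 ± 0.53 and the peroxiredoxin Prdx3 at 0.86 ± 0.52, while Ucp1 and Ucp3 were not well above background on any array. Of 13 hypoxia-responsive genes 5 were above 0, with a median of -0.17, and the glucose transporter Slc2a1 had the smallest adjusted p, at 4.13 and 4.38 against 5.12 and 6.16 (difference -1.39 ± 0.51, limma, adjusted p = 0.344). None passed.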

How the data were processed

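RNA of 4 sorted samples was amplified and labelled with Cy3 for 1 array each, per the labels' protocols. All 4 arrays lay on 1 slide with 1 scan, and each group took adjacent positions, so position and group cannot be told apart. The authors deposited scanner tables, written by Agilent Feature Extraction 10.1.1.1 per the file headers (9.5 per the submitters' processing notes). Their processed signal is a background-subtracted intensity, unscaled between arrays, per the file headers. Flags mark outliers and signal well above background. The authors' deposited value table is a linear ratio: on 10728 bright probes its log2 differences matched the scanner values, with an SD of at most 0.00161, and every probe had a median of 1. Direction and centring are thus known, the array factors are not. Its column medians are 0.853, 0.989, 0.928 and 0.739.

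Control and outlier spots (109 to 133 per array) were dropped, spots of a probe averaged, and log2 signal taken relative to the 75th percentile. RefSeq (GRCm38.p6) accessions named 24375 of 41174 probes. The remaining probes were grouped by their accession, each counted as a gene. A probe was tested if flagged as well above background on both CD44+ or both CD44- arrays, the brightest per gene, with limma 3.58.1 (lmFit and eBayes, R 4.3.3) and Benjamini-Hochberg adjustment over 21045 genes, of which 84 passed. The script was tested on simulated data. 1 gene that the rule below would name is not reported here. Alternatives changed scaling, background correction, filter, probe choice, replicate block and arrays used. By rule, genes named were chosen main subunits with cytochrome c, isoform pairs, the 3 largest differences each way, the 2 smallest adjusted p per complex and up to 3 per other list. Genes named beyond that were chosen with their values known. Members, lists and motifs were chosen with earlier results of these data known.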

Additional observations from a re-analysis of the deposited data

How the results depend on the processing

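No oxidative phosphorylation gene passed in any of the 12 alternatives, including those that called many other genes. As reported, 84 of 21045 genes (0.399%) passed. Among alternatives with all 4 arrays, calls ran from 6 of 21045 genes with quantile normalization to 1829 of 21045 with the replicate block. Where few of all genes passed, 0 of 86 members says little about the members. Over all genes, 5 were higher and 79 lower as reported. Median scaling gave 121 and 627, the authors' deposited values 121 and 632, normexp background correction (on the median spot signal) 98 and 442, quantile normalization 0 and 6, no filter on dim probes 0 and 24, and a filter on all 4 arrays 18 higher. The higher share of calls was 5.95% as reported and 16.2% with median scaling, which moved the median of all genes from 0.16 to 0.26. That share was 18.1% with normexp and 0% with quantile normalization. With 1 array left out there were 0 to 185 higher and 2 to 1384 lower, the fewest without the second CD44+ array and the most without the first CD44- array. With the replicate number as a block, 336 were higher and 1493 lower, and no member passed (smallest adjusted p = 0.564). Same-numbered arrays deviated together at a correlation of 0.347 across all genes and 0.205 across members. Nothing in the labels pairs them, so the block is not used above. A slide block could not be fitted, as all arrays share 1 slide and scan. The members' median ranged from -0.064 to 0.69.

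Signs of named genes near 0 changed as follows, none with a call. Ndufa5 became 0.019 with median scaling and 0.017 in the authors' value table. With quantile normalization Atp5c1 became -0.16, Ndufv1 -0.065 and Uqcrc1 -0.12, and with normexp Atp5c1 became -0.0060 and Uqcrc1 -0.050. With 1 array left out, 59 of all 86 members crossed 0, among them 20 of the genes named by the rule for main subunits, isoforms and extremes. Their differences ranged from -0.58 to 1.02 for Sdhb, -0.54 to 0.56 for Atp5c1, -0.48 to 0.31 for Ndufa5, -0.42 to 0.68 for Cox7a2l, -0.65 to 0.41 for Cox6b2 and -0.30 to 0.81 for Cox6a2. They ranged from -0.27 to 1.58 for Cox7c, -0.10 to 1.20 for Atp5g1, -0.19 to 1.09 for Cox5a, -0.23 to 1.05 for Cyc1, -0.030 to 0.99 for Uqcrb, -0.12 to 0.91 for Cox7b and -0.085 to 0.81 for Cox6a1, and from -0.039 to 0.79 for Cox5b, -0.14 to 0.75 for Cox7a2, -0.062 to 0.72 for Atp5b, -0.15 to 0.68 for Cox6b1, -0.061 to 0.60 for Ndufs1, -0.27 to 0.58 for Ndufv1 and -0.26 to 0.37 for Uqcrc1.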
